A study of Mus musculus with 4 samples.

Results

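The T-box genes described here are Tbx1, Tbx2, Tbx4, Tbx5, Tbx6, Tbx15, Tbx18 and Tbx20, the members of the family that are known for roles in organ formation and not in pluripotency. They were chosen by name, and every probe set annotated to exactly 1 of these symbols was taken, which gave 14 probe sets for 8 genes among 18193 named genes. The material was mouse ES (embryonic stem) cells, which derive from the early embryo and renew themselves in culture, and RNA was read on 4 Affymetrix arrays with 1 array per group. The groups were ES cells with a constitutive knockout (KO) of Ring1B, their wild-type control, ES cells in which Ring1A and Ring1B were knocked out conditionally (double KO, day 4), and the wild-type control of these, all by their labels. The double KO was made conditional with OHT (4-hydroxytamoxifen), because cells lacking both proteins for good could not be kept in culture. Mouse strain, Cre driver, treatment of the controls and the number of clones or cultures behind an array are not given in the sources used here.

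T-box proteins are transcription factors that share a DNA-binding domain, the T-box, and are known from the embryo as dosage-sensitive regulators of mesoderm, heart and limb. Ring1A (gene Ring1) and Ring1B (gene Rnf2) are the ubiquitin ligases of Polycomb repressive complex 1 (PRC1), which keeps many developmental regulators silent in ES cells, often at promoters rich in CG dinucleotides. Such regulators are typically off or nearly off in ES cells. With 1 array per group no difference below has a replicate check or a p-value, and precision is limited by having so few arrays.

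Signals are MAS5 values on a linear scale after each array was brought to a common 2%-trimmed mean. A signal at or under 36.6, the floor, was treated as unmeasured, and values under it have no order. A log2 difference is the floored log2 signal of the array labelled KO minus that of its labelled control, and 2-fold is a log2 difference of 1. Where 1 of the 2 arrays is at the floor the difference is a bound, written "at least", and such a gene can reach 2-fold only with a signal of 73.2 or more on the other array. In RNA from bulk cells, fewer cells expressing a gene and less RNA per cell cannot be told apart.

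The targeted genes did not settle the labels. Across its 5 probe sets Rnf2 was under 2-fold apart or at the floor in both comparisons, with 2775 in cells labelled Ring1B KO against 2580 in their control, and 1986 in cells labelled double KO against 2182 in their control, at the brightest probe set. Ring1 read 55.6 in cells labelled double KO against 44.7 in their control, and 164 in cells labelled Ring1B KO against 146 in theirs. Its signal thus differed 3.27-fold between the controls, and the control of the double KO pair was the lower. Whether that control had intact Ring1 was not tested. Where the Rnf2 and Ring1 probe sets lie relative to the deleted exons is not known, so each array goes by its label here. An exchange of the labels within the double KO pair would turn the sign of every double KO difference below, and the signals of the targeted genes do not show whether one took place. All 10 ES cell markers, among them Pou5f1, Nanog and Sox2, were above the floor on all 4 arrays. Of them, 8 were lower in cells labelled Ring1B KO (median log2 difference −0.26) and 9 were higher in cells labelled double KO (median 0.66). Only Tdgf1, 2.04-fold higher in cells labelled double KO, was 2-fold apart, and 3.02% of all genes were as much higher there. The deposited trimmed means were 500 in both Ring1B arrays, 147 in the double KO and 160 in its control, so the pairs had been scaled apart, and comparisons across pairs rest on the rescaling.

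Promoter sequences of the members that were at least 2-fold apart in a comparison are shown first, because CG-rich promoters are the kind PRC1 is known to occupy. RefSeq promoter windows (GRCm38.p6, 250 bases before to 50 after an annotated start) were matched for 5 of the 8 members, Tbx1, Tbx4, Tbx6, Tbx18 and Tbx20. Tbx1 has windows at 2 starts, on the minus strand at chr16:18588850-18589149 (the inner start) and chr16:18590622-18590921 (the outer start). The Tbx4 window is on the plus strand at chr11:85896515-85896814, and those of Tbx18 and Tbx20 are on the minus strand at chr9:87731211-87731510 and chr9:24774254-24774553. Each is written 5′ to 3′ along the gene, and capitals mark the CG dinucleotides.
Tbx1 inner start: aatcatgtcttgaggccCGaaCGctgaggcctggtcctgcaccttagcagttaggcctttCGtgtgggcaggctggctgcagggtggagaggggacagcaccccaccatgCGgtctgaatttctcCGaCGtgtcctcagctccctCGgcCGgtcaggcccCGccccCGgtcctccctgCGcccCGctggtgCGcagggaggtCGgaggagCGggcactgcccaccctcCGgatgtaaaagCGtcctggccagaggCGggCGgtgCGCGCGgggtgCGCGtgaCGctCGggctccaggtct
Tbx1 outer start: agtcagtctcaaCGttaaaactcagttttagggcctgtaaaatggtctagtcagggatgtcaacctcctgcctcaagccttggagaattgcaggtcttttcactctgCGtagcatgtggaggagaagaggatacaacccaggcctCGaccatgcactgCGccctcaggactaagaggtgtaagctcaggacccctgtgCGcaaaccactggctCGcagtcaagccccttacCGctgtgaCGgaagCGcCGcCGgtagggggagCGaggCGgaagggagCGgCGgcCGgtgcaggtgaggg
Tbx4: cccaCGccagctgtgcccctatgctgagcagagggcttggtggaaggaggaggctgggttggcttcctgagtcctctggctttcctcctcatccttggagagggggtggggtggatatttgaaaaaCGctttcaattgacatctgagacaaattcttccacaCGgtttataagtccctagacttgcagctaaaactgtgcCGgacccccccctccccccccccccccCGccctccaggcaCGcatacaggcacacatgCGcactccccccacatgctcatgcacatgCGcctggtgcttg
Tbx18: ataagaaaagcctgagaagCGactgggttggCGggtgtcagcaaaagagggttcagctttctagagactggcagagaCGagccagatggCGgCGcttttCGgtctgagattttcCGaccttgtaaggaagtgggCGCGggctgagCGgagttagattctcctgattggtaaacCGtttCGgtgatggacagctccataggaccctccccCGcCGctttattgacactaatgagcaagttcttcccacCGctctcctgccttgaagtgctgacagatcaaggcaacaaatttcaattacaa
Tbx20: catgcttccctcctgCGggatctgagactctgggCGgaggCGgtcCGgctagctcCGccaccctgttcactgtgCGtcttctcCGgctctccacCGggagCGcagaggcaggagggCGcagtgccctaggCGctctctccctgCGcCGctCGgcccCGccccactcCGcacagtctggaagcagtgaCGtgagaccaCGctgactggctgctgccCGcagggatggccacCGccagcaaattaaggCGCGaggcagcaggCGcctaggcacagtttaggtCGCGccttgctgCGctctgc

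The member promoters differed in their CG content. The inner Tbx1 window and the Tbx20 window each held 26 CG dinucleotides, a number reached by 16.9% of all 32841 promoter windows in the table. The outer Tbx1 window held 16, the Tbx18 window 15, the Tbx4 window 8 and the Tbx6 window 7, against a median of 7 over all windows. G and C made up 51.7% of the Tbx18 window and 69.0% of the inner Tbx1 window, against a median of 52.7% over all windows. The core of the T-box binding motif, AGGTGT, searched on both strands, was present in 1 of the 6 member windows, the outer Tbx1 window, and in 13.7% of all windows.

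**Figure D1:**
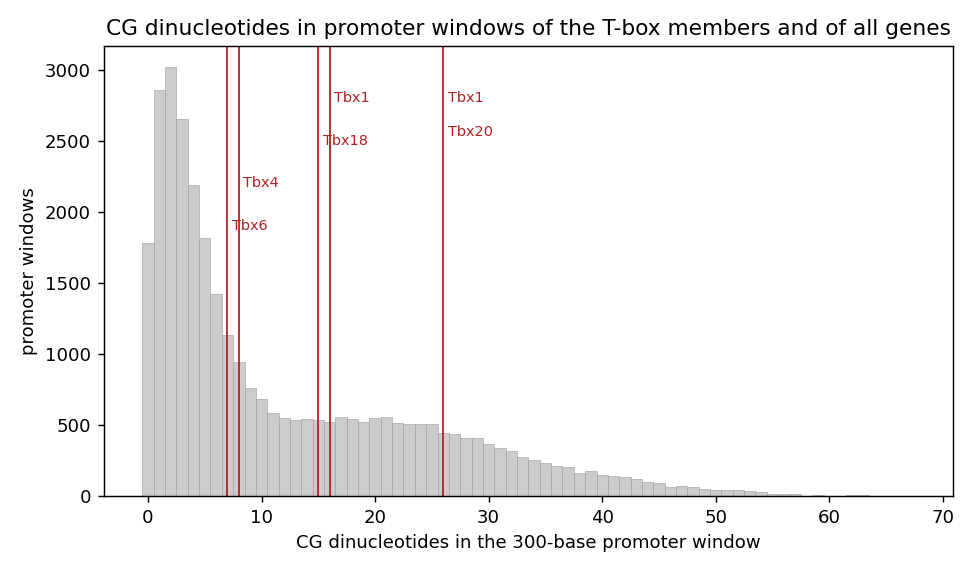
Number of promoter windows (vertical axis) by the number of CG dinucleotides in the 300-base window (horizontal axis), for all 32841 windows in grey. Red lines mark the 6 windows of the T-box members, which run from 7 (Tbx6) to 26 (Tbx1 inner start and Tbx20).

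Signals of the T-box members were low on all arrays, and none was above the floor in cells labelled double KO. Of the 14 probe sets, 9 were above the floor in cells labelled Ring1B KO against 2 in their control, and 0 in cells labelled double KO against 9 in their control. The highest signal of any member probe set was 141 in cells labelled Ring1B KO against 53.7 in their control, and 32.6 in cells labelled double KO against 165 in their control. The remaining 3 probe sets, 1 each of Tbx2, Tbx5 and Tbx20, were under the floor on every array. Of the 8 genes, taken by their brightest probe set, 7 were above the floor on at least 1 array, and Tbx2 was not.

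**Figure D2:**
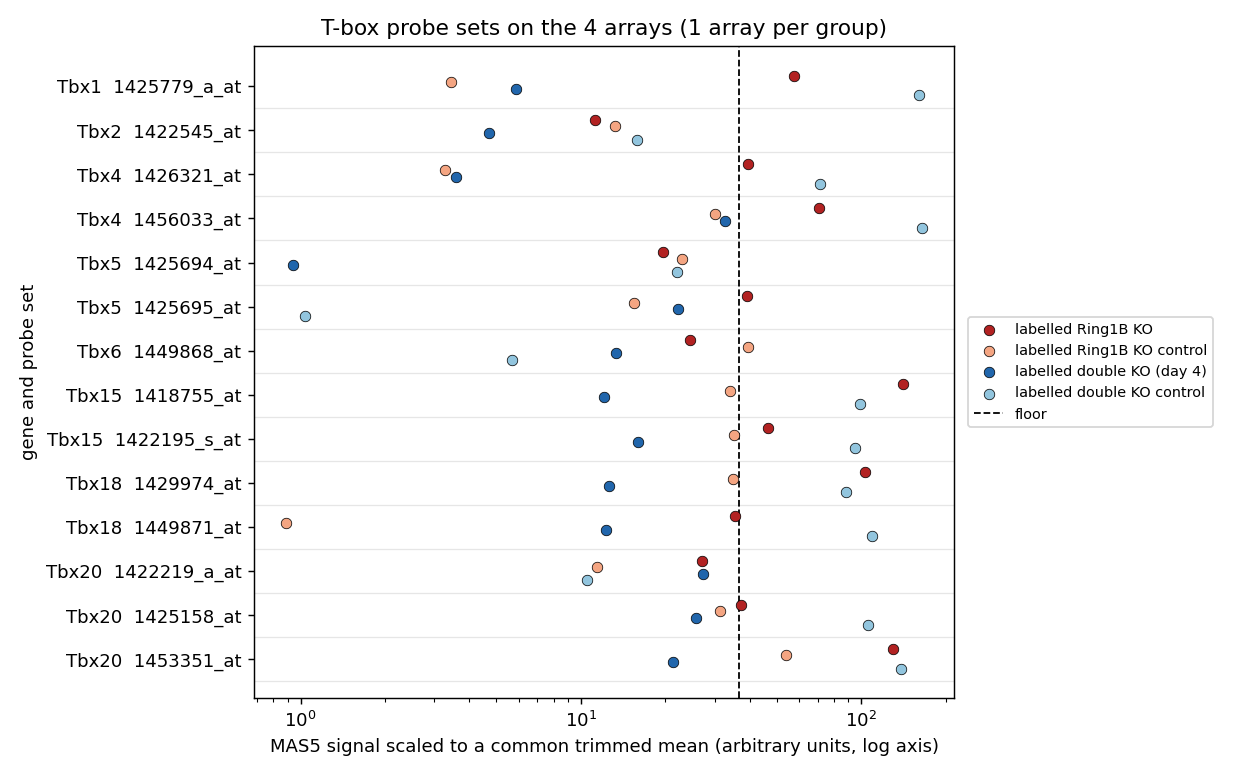
Scaled MAS5 signal (horizontal log axis, arbitrary units) of the 14 T-box probe sets, 1 per line, with 1 point per array and the floor of 36.6 as a dashed line. Every point of the array labelled double KO lies left of the floor, while 9 points of its labelled control and 9 of the array labelled Ring1B KO lie right of it.

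Among the heart and pharynx genes, Tbx20, which is required for growth of the heart tube, was the one member measured on 3 arrays. Its brightest probe set (1453351_at) read 130 in cells labelled Ring1B KO against 53.7 in their control, and 21.3 in cells labelled double KO against 139 in their control. It was thus 2.42-fold higher in cells labelled Ring1B KO, with both signals above the floor, and at least 3.79-fold lower in cells labelled double KO. A second Tbx20 probe set (1425158_at) read 37.3 in cells labelled Ring1B KO against 31.3 in their control, and 25.8 in cells labelled double KO against 106 in their control. It showed the difference in the double KO pair, at least 2.90-fold, while its Ring1B difference was a bound of 0.03 on the log2 scale. The third (1422219_a_at) was under the floor on all arrays, at 27.0 or less on 3 arrays and 27.3 in cells labelled double KO.

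Tbx1, the pharyngeal arch and outflow tract regulator whose loss underlies much of DiGeorge syndrome in humans, has 1 probe set (1425779_a_at). It read 57.7 in cells labelled Ring1B KO against 3.44 in their control, and 5.85 in cells labelled double KO against 161 in their control. The arrays with a measured signal were thus the labelled Ring1B KO and the labelled double KO control. The double KO difference was at least 4.41-fold lower. The Ring1B difference, against a control at the floor, was a bound of 1.58-fold, which is under 2-fold but leaves a larger difference possible. Tbx5, a regulator of the heart and the forelimb, read 39.2 in cells labelled Ring1B KO against 15.5 in their control at 1 probe set (1425695_at), and 22.3 in cells labelled double KO against 1.04 in their control. The other Tbx5 probe set (1425694_at) lay under the floor on all arrays, so Tbx5 gave no comparison in the double KO pair and a bound of 1.07-fold in the Ring1B pair. Tbx2, a repressor that keeps the atrioventricular canal from turning into chamber muscle, read 11.2 in cells labelled Ring1B KO against 13.2 in their control, and 4.71 in cells labelled double KO against 15.9 in their control, all under the floor.

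The limb and skin genes had the same array order as Tbx20 in both pairs. Tbx4, the hindlimb and lung mesenchyme factor, read 70.5 in cells labelled Ring1B KO against 30.1 in their control, and 32.6 in cells labelled double KO against 165 in their control (1456033_at). That is at least 4.51-fold lower in the double KO pair. In the Ring1B pair it is a bound of 1.93-fold, which is under 2-fold but leaves a larger difference possible. The dimmer Tbx4 probe set (1426321_at) was above the floor on the same arrays, with 39.3 in cells labelled Ring1B KO against 3.27 in their control, and 3.58 in cells labelled double KO against 71.0 in their control. Its bounds were 1.08-fold and 1.94-fold, so neither bound reached 2-fold.

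Tbx15, which patterns the dermis and the skeleton, was above the floor on 2 arrays. Its brightest probe set (1418755_at) read 141 in cells labelled Ring1B KO against 34.1 in their control, and 12.1 in cells labelled double KO against 99.0 in their control. The Ring1B difference was at least 3.86-fold higher, and the double KO difference at least 2.71-fold lower. The second Tbx15 probe set (1422195_s_at), whose suffix marks probes that can match several transcripts, read 46.5 in cells labelled Ring1B KO against 35.2 in their control, and 16.0 in cells labelled double KO against 95.3 in their control. The double KO difference was alike at both probe sets (at least 2.61-fold at the second), and the Ring1B difference at the second was a bound of 1.27-fold.

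Tbx18, a gene of the epicardium, the sinus node and the anterior somite, had a similar profile. At its brightest probe set (1429974_at) it read 103 in cells labelled Ring1B KO against 34.8 in their control, and 12.6 in cells labelled double KO against 88.3 in their control. This is at least 2.82-fold higher in cells labelled Ring1B KO and at least 2.41-fold lower in cells labelled double KO. The other Tbx18 probe set (1449871_at) read 35.6 in cells labelled Ring1B KO against 0.887 in their control, both under the floor, and 12.3 in cells labelled double KO against 109 in their control. Tbx6, which specifies paraxial mesoderm, was the exception to these profiles. It read 24.4 in cells labelled Ring1B KO against 39.3 in their control, and 13.4 in cells labelled double KO against 5.70 in their control. The 1 value above the floor was thus on the Ring1B control array, which gave a bound of −0.10 on the log2 scale.

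In the Ring1B comparison, then, Tbx15, Tbx18 and Tbx20 were at least 2-fold higher, 3 of the 7 members above the floor on either array, and 0 were at least 2-fold lower. Of 12343 genes, 3.54% were higher by that much and 2.61% lower, together 6.15%. Tbx1, Tbx4, Tbx5, Tbx15 and Tbx18 were above the floor only in cells labelled Ring1B KO and Tbx6 only in their control, so their direction followed from the floor, and Tbx20 was the 1 member measured on both arrays. The members' median log2 difference was 0.95, against −0.02 over all genes, with bounds counted at their bound. Because dim MAS5 signals vary more, the share was also taken over genes whose brighter array was under 4 times the floor, where 4.77% were at least 2-fold higher. By probe set, 3 of 10 were at least 2-fold higher, against 2.88% of all probe sets, and each of the 3 genes reached 2-fold at only 1 of its probe sets.

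In cells labelled double KO, Tbx1, Tbx4, Tbx15, Tbx18 and Tbx20 were lower by at least 2-fold, and Tbx2, Tbx5 and Tbx6 were at the floor on both arrays. Of 12353 genes, 9.99% were lower by that much and 3.02% higher, together 13.0%. Among genes whose brighter array was under 4 times the floor, a signal of 146, 12.0% were at least 2-fold lower. Tbx1 and Tbx4 lie above that limit, with 161 and 165 on the double KO control. The array labelled double KO had no member above the floor, so a member could enter this comparison only through its control, and only in this direction. Each fold is for the same reason a bound. By probe set 8 of 9 were at least 2-fold lower, against 8.37% of all probe sets, and the remaining one was the dimmer Tbx4 probe set. The second probe sets of Tbx15, Tbx18 and Tbx20 all passed 2-fold here.

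**Figure D3:**
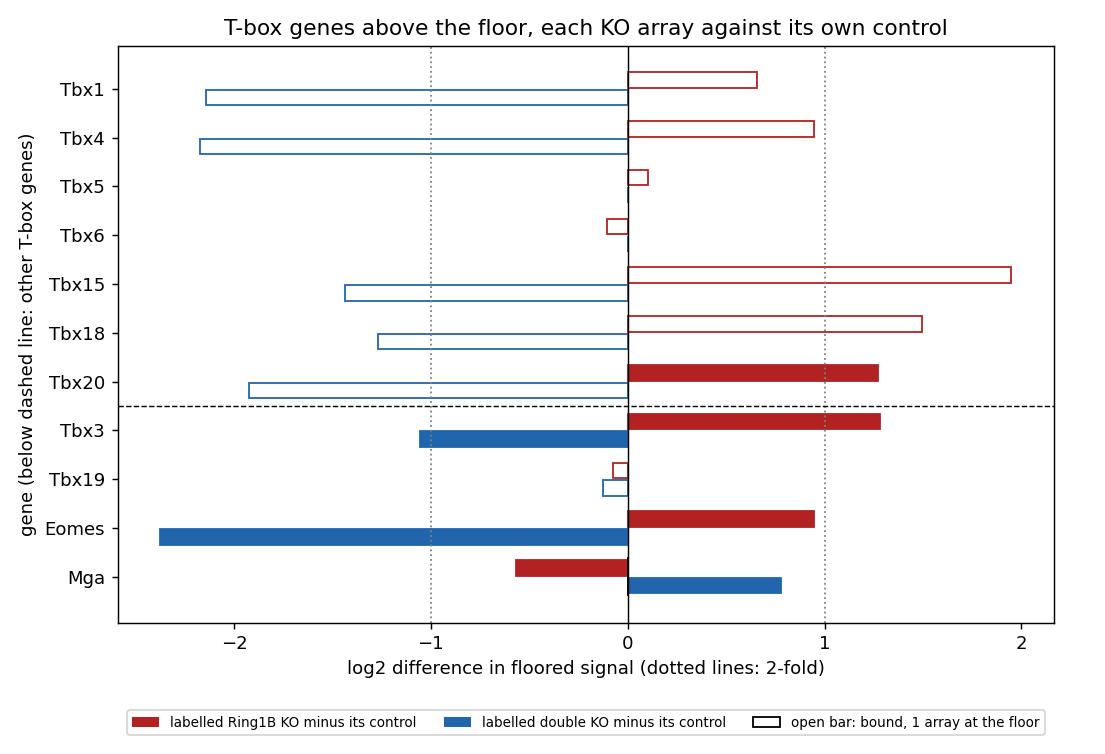
Log2 difference in floored signal (horizontal axis) of the T-box genes above the floor, with red bars for the array labelled Ring1B KO minus its control and blue bars for the array labelled double KO minus its control. Open bars are bounds, and dotted lines mark 2-fold. The members Tbx1, Tbx4, Tbx15, Tbx18 and Tbx20 have red bars right of 0 and blue bars left of it, as do Tbx3 and Eomes below the dashed line, while Mga runs the other way.

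The opposite directions in the pairs were not particular to the T-box genes. Of the 437 genes at least 2-fold higher in cells labelled Ring1B KO, 224 (51.3%) were at least 2-fold lower in cells labelled double KO. Of all genes 9.99% were as much lower there, and the 224 are 18.2% of those 1234 genes. Tbx15, Tbx18 and Tbx20 were 3 of these 224. The comparisons share no array.

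**Figure D4:**
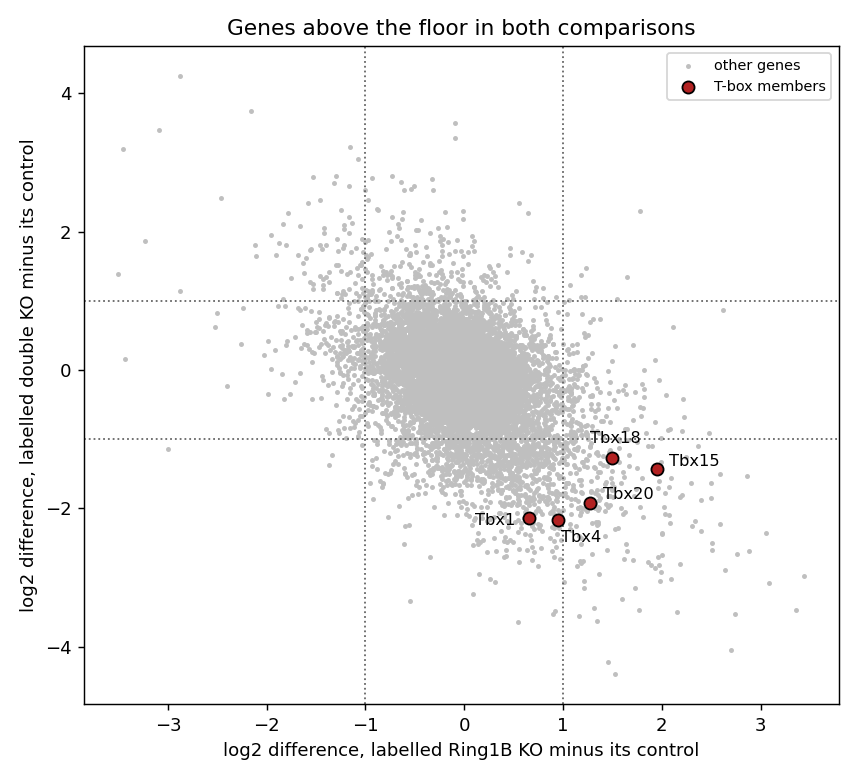
Log2 difference of each gene above the floor in both comparisons, for the array labelled Ring1B KO minus its control (horizontal axis) and the array labelled double KO minus its control (vertical axis), with dotted lines at 2-fold. The T-box members (red) lie at the lower right, Tbx15, Tbx18 and Tbx20 past both 2-fold lines, within the cloud of other genes (grey) that extends there.

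The control arrays, both labelled wild-type, differed in these genes as well as in Ring1. Tbx1, Tbx4, Tbx15, Tbx18 and Tbx20 were each at least 2-fold higher in the double KO control than in the Ring1B control, 5 of 6 members compared, and 0 were as much lower. Of all genes 12.2% were higher and 8.15% lower by that much. For Tbx1, Tbx4, Tbx15 and Tbx18 this bound has the size of the double KO bound by construction, since the double KO and the Ring1B control arrays were both at the floor. The median over the members was 1.40 on the log2 scale, against 0.13 over all genes. Tbx20, above the floor on both controls, read 139 on the double KO control and 53.7 on the Ring1B control, a log2 difference of 1.37. When the controls were exchanged, cells labelled Ring1B KO had log2 differences of −1.48 for Tbx1, −1.23 for Tbx4, 0.51 for Tbx15, 0.23 for Tbx18 and −0.09 for Tbx20. The direction of Tbx1, Tbx4 and Tbx20 in the Ring1B comparison thus depended on the control used. In cells labelled double KO only 2 members could be compared with the Ring1B control, and its highest member signal of 53.7 could not give 2-fold over the floor.

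Tbx1, Tbx4, Tbx15, Tbx18 and Tbx20, the members above the floor on at least 2 arrays, fell into 2 profiles at their brightest probe sets. Tbx2, Tbx5 and Tbx6 were left out of this comparison. Tbx1 and Tbx4 were highest on the double KO control, with a Euclidean distance of 0.24 between their log2 signals over the 4 arrays, each centred on its mean. Tbx15, Tbx18 and Tbx20 were about as high in cells labelled Ring1B KO as on the double KO control, with distances of 0.37 to 0.59 among them. Between the profiles the distances were 0.89 to 1.44. At the second probe sets this difference was not seen, since those of Tbx15, Tbx18 and Tbx20 read 46.5, 35.6 and 37.3 in cells labelled Ring1B KO and 95.3, 109 and 106 on the double KO control. With 1 array per group there is no spread against which neighbours in these orders could be told apart.

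By the same distance, the genes most like each member were taken from 4759 named genes that were above the floor on at least 2 arrays and varied at least 2-fold. For Tbx1 these were Scarf2, which lies on chromosome 16 as Tbx1 does, H2-Q10 and Ebf3, at 0.09, 0.12 and 0.19. For Tbx4 they were Nr2f2, an orphan nuclear receptor gene, Hoxc10, a posterior Hox gene, and Scarf2, at 0.12, 0.14 and 0.19. For Tbx15 they were Cpm, Dmkn and the homeobox gene Meis2, at 0.14, 0.15 and 0.17. For Tbx18 they were the neurofilament gene Nefh, Tax1bp3 and Gypc, at 0.15, 0.15 and 0.18. For Tbx20 they were Tram1l1, Sfmbt2, which encodes a Polycomb-related protein, and Ubash3b, at 0.13, 0.17 and 0.18. Signals of these genes at the floor count as equal, so a small distance among dim genes says only that they were above the floor on the same arrays and by like amounts.

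Of 10 other T-box symbols listed, 7 matched a probe set with 1 symbol. Tbx10 did not, nor did T and Tbxt, which name the same gene. This does not show that the array lacks probes for them. In each comparison 4 genes were above the floor. In the Ring1B pair their median log2 difference was 0.44, with 1 at least 2-fold higher, against 3.54% of all genes. In the double KO pair it was −0.59, with 2 at least 2-fold lower, against 9.99% of all genes. Tbx3, Eomes and Mga were above the floor on all arrays. Tbx3, part of the pluripotency network, read 1312 in cells labelled Ring1B KO against 539 in their control, and 1064 in cells labelled double KO against 2208 in their control. Eomes, needed for trophoblast and for the primitive streak, read 164 in cells labelled Ring1B KO against 85.3 in their control, and 87.5 in cells labelled double KO against 453 in their control. Their double KO differences were 2.08-fold and 5.18-fold lower, and the Ring1B differences 2.43-fold and 1.92-fold higher. These directions are those of the members, with no array at the floor. The controls differed as well, by 4.10-fold in Tbx3 and 5.31-fold in Eomes, higher on the double KO control. Against the other pair's control, cells labelled Ring1B KO were lower in both genes, and cells labelled double KO were higher in Tbx3. In cells labelled double KO, Eomes then read 87.5 against 85.3. At Tbx3 probe set 1439567_at the differences were 1.23-fold and 1.22-fold, while 1437479_x_at and 1445757_at passed 2-fold in both pairs. Mga, a T-box and basic helix-loop-helix protein that partners Max and belongs to a variant PRC1, had log2 differences of −0.57 and 0.78, under 2-fold in each pair. Tbx19 stayed near the floor, and Tbr1, Tbx21 and Tbx22 were under it on all arrays.

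Heart and limb transcription factors that work beside T-box proteins leaned the same way as the members in both pairs. Of 15 above the floor in the Ring1B comparison, 4 were at least 2-fold higher and 1 lower, with a median log2 difference of 0.40. Of all genes, 3.54% were higher and 2.61% lower by that much. The zinc finger genes Gata6 and Gata4, whose proteins bind with Tbx5 and Tbx20 in the heart, were 4.44-fold and 4.09-fold higher, and both are also primitive endoderm genes. The homeobox gene Msx2 was 2.59-fold higher, the forkhead gene Foxc2 had a log2 difference of 1.11, and Eya1 was 2.91-fold lower. In the double KO comparison 7 of 15 were lower by at least 2-fold and 0 higher (median −0.94), against 9.99% and 3.02% of all genes. Gata6 was at least 11.3-fold lower, the hindlimb gene Pitx1 at least 6.13-fold and Msx2 3.63-fold. Sall4 and Hey1 had log2 differences of 0.37 and 0.19, and Eya1 a bound of 0.26.

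Genes known to lie downstream of T-box factors were mostly under 2-fold apart or at the floor. Of 8 above the floor in the Ring1B comparison none was 2-fold apart, against 6.15% of all genes, with a median of 0.12. Of 9 in the double KO comparison, 2 were lower by at least 2-fold, against 9.99% of all genes (median −0.02). Those 2 were Cdkn1a (701 in cells labelled double KO against 1549 in their control), a cell cycle inhibitor gene repressed by Tbx2, and the somite gene Mesp2 (50.5 and 109), a target of Tbx6. Nppa and Gja5, heart genes activated by Tbx5, were under the floor on all arrays, as was Fgf8. Cdkn2a, another gene repressed by Tbx2, read 75.3 in cells labelled Ring1B KO against 37.8 in their control, a log2 difference of 0.99. The connexin gene Gja1 was bright on all arrays and under 2-fold apart in both pairs.

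Of the other cell types checked, primitive endoderm had most of its markers 2-fold apart in both pairs, in the directions of the T-box members. All 8 primitive endoderm markers were at least 2-fold higher in cells labelled Ring1B KO, against 3.54% of all genes. Their summed signals were 10875 there against 2509 in their control. In cells labelled double KO, 6 of 8 were at least 2-fold lower, against 9.99% of all genes, with sums of 472 there against 3049 in their control. Of 10 fibroblast markers, the cell type of a feeder layer, 9 were compared in the Ring1B pair and 0 were 2-fold apart, against 6.15% of all genes. There 8 of the 9 were higher (median log2 difference 0.42), with sums of 16930 in the KO and 14069 in its control. In cells labelled double KO, 9 of 10 were lower (median −1.74), 7 of them by at least 2-fold, against 9.99% of all genes. These are also the directions of the T-box members. The fibroblast sums of the double KO pair, 8282 in the KO and 9400 in its control, include Fn1. It read 6222 in cells labelled double KO against 5108 in their control.

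The other lists were dimmer. Of 8 cardiac muscle markers 5 were compared in each pair. Myh6, a heart myosin gene, was at least 5.64-fold higher in cells labelled Ring1B KO. There Myh7, Myl7 and Actc1 had bounds of 0.93, 0.63 and −0.03 on the log2 scale, and Myl4 a log2 difference of 0.08. Myh6 and Myl7 were 3.60-fold and 2.52-fold lower in cells labelled double KO, where Myh7 and Ryr2 had bounds of −0.99 and −0.65 and Myl4 a log2 difference of −0.58. Tnnt2 and Tnni1 were under the floor on all arrays. The cardiac sums were 572 in the Ring1B KO and 297 in its control, and 237 in the double KO and 614 in its control. Of 8 presomitic and somite markers, 0 of 5 compared were 2-fold apart in the Ring1B pair, against 6.15% of all genes (median log2 difference −0.07). Uncx was under the floor on all arrays. In the double KO pair 5 of 6 compared were lower (median −0.56), 2 of them by at least 2-fold, against 9.99% of all genes. Their sums were 1776 in the Ring1B KO and 1428 in its control, and 689 in the double KO and 952 in its control, mostly from Tcf15 in the Ring1B pair (1421 in the KO and 1026 in its control). Of 6 epicardium markers, 0 of 3 compared were 2-fold apart in the Ring1B pair, against 6.15% of all genes. Their sums there were 326 in the KO and 239 in its control. In the double KO pair Krt19 was 5.24-fold lower, while Wt1, Upk3b and Aldh1a2 had log2 differences of −0.15, −0.12 and −0.72 as bounds (sums of 190.5 in the KO and 771 in its control). Tcf21 and Upk1b were under the floor on all arrays. The part of other cell types in the T-box differences was not tested.

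**Figure D5:**
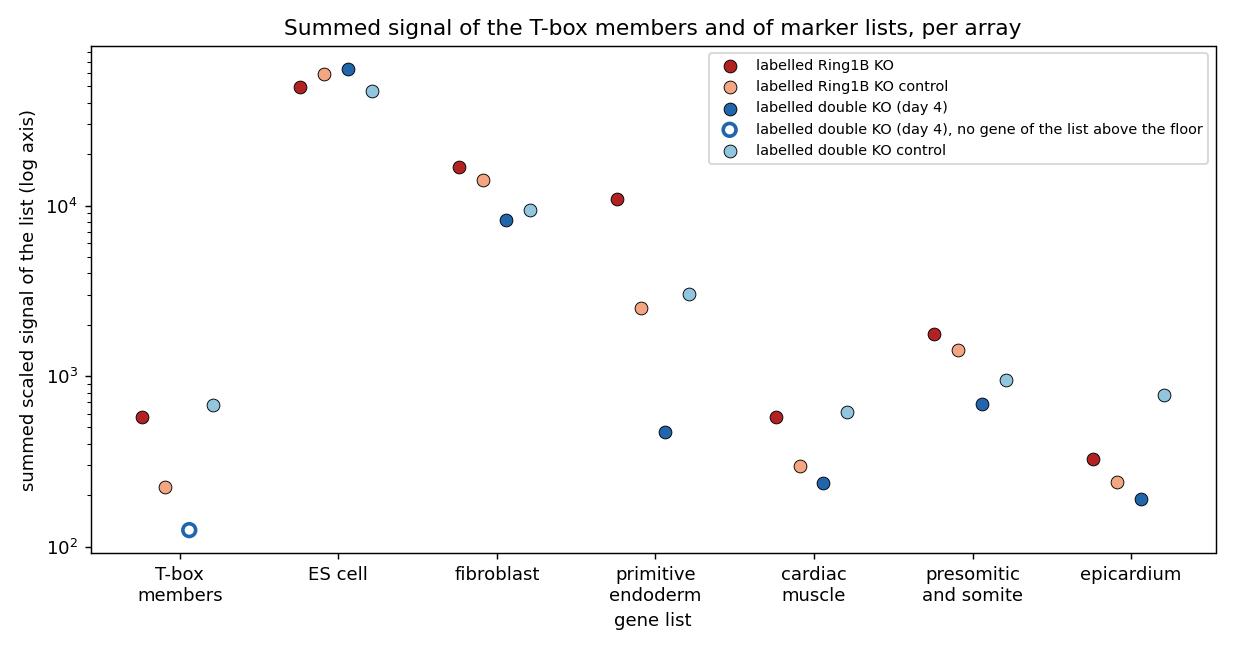
Summed scaled signal (vertical log axis) of the 8 T-box members and of 6 marker lists, with 1 point per array. The T-box sum was 577 in cells labelled Ring1B KO, with 6 of 8 members above the floor, and 224 in their control, with 2 above it. Sums include signals under the floor, which are unmeasured. The open point marks cells labelled double KO, where all 8 members were under the floor and the sum is not a measured level, while it was 675 in their control.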

How the data were processed

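Total RNA was labelled with biotin by a single-cycle kit and hybridised to 1 array per group, per the labels' protocols. The deposited values are signal intensities of 45101 probe sets, which the authors made in MAS5 (named in the submitters' processing notes); settings and detection calls are not given in the sources used here.

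Arrays were scaled to a common 2%-trimmed mean (277), floored at the 40th percentile of scaled signals of the 34945 probe sets with 1 gene symbol, and log2-transformed (Python 3.11.15, pandas 2.3.3). Scaling assumes a like summed signal per array, and the floor shrinks differences of dim genes. Of the rest, 932 probe sets had several symbols, 9211 had none and 13 were manufacturer's controls with 1 symbol, which were left out. A gene was taken by its probe set with the highest mean log2 signal. With 1 array per group no test was run. The steps were tested on simulated data. Changes were placed there only in genes brighter than 4 times the floor on the double KO control, so recovery of changes in dim genes was not tested. The members and lists were chosen with earlier results of these data known. Named genes were the members, Ring1, Rnf2, up to 3 genes per list and direction with the largest differences, and the 3 genes nearest each member. Neighbouring genes, list genes at the floor and a few list genes of known role were named in addition, after their values were seen. Promoters are from RefSeq, and protein sequences were not analysed here. Alternatives were other scalings, floors, probe set rules and the control array of the other pair.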

Additional observations from a re-analysis of the deposited data

Results flagged for a closer look

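For 5 members the array labelled KO differed from its control in opposite directions in the pairs, and with 1 array per group that contrast was not tested. The log2 differences in the Ring1B comparison were 0.66 for Tbx1, 0.95 for Tbx4, 1.95 for Tbx15, 1.50 for Tbx18 and 1.27 for Tbx20. Those in the double KO comparison were −2.14 for Tbx1, −2.17 for Tbx4, −1.44 for Tbx15, −1.27 for Tbx18 and −1.92 for Tbx20. Of these 10 values all but that of Tbx20 in the Ring1B comparison are bounds against the floor.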

How the results depend on the processing

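Quantile normalization, scaling to a common median and leaving out probe sets that can match several transcripts kept the direction and the side of 2-fold of every member that could still be compared. Tbx1, whose 1 probe set can match several transcripts, dropped out of the last. In the Ring1B comparison Tbx6, the 1 member lower there, could not be compared under quantile normalization. Neither Tbx5 nor Tbx6 could be compared there with scaling to a common median. Scaling to a common median moved the median of all genes to 0.12 in the double KO comparison, and deposited values moved it to −0.15. With values as deposited, 5 members were at least 2-fold apart in the Ring1B comparison (7.43% of all genes) and 3 in the double KO comparison (12.0% of all genes), where the median was −1.10. With the floor at the 20th percentile, 6 were apart in the Ring1B comparison (10.3% of all genes), and the double KO median was −2.52. With the floor at the 60th percentile, 0 of 2 members in the Ring1B and 0 of 3 in the double KO comparison were apart (3.52% and 8.16% of all genes), and the medians were 0.0969 and −0.35. With the mean over probe sets, 1 member (Tbx15) was apart in the Ring1B comparison (4.34% of all genes), and Tbx18 and Tbx20 had 0.75 and 0.43. With the controls exchanged between pairs, Tbx1, Tbx4 and Tbx20 reversed to −1.48, −1.23 and −0.0946 in the Ring1B comparison, whose median was 0.00315. In the double KO comparison only 2 members could then be compared, neither bright enough on the Ring1B control to reach 2-fold, so that 0 apart and a median of −0.33 follow from the floor. A higher floor leaves less room for dim probe sets by construction; the cause of the other shifts was not tested. No paired analysis was possible because each group has 1 array and the labels carry no replicate numbers. Low signal over the floor limits every member, and saturation was not assessed.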

Other observations

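The genes next to the T-box members in the RefSeq gene table (GRCm38.p6) were mostly under 2-fold apart or at the floor. Of 13 protein-coding neighbours outside the family, 10 were above the floor in the Ring1B comparison and 11 in the double KO comparison. In each, Nt5e, the gene beside Tbx18 that encodes the ectonucleotidase CD73, was the 1 neighbour at least 2-fold apart. Of all genes, 6.15% were that far apart in the Ring1B comparison and 13.0% in the double KO comparison. With so few neighbours, 1 is near these shares. Nt5e read 128 in cells labelled Ring1B KO against 49.9 in their control, a log2 difference of 1.35, and 32.8 in cells labelled double KO against 169 in their control, a bound of −2.21. Cep162, on the other side of Tbx18, had log2 differences of −0.41 and 0.04.

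T-box genes that are neighbours of each other differed in whether they had a signal. Tbx2 and Tbx4 are adjacent on chromosome 11, and Tbx4 read 165 on the double KO control array where Tbx2 read 15.9, under the floor. Tbx3 and Tbx5 are adjacent on chromosome 5, and Tbx3 was above the floor on all 4 arrays while Tbx5 was above it on 1. Different probe sets bind their targets with different efficiency, so their signals say nothing of relative transcript amounts.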
